A study of Mus musculus with 19 samples.

Results

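The genes described here encode 10 proteoglycan core proteins, out of 19716 genes in the table: Dcn, Bgn, Lum, Prelp, Vcan, Hspg2, Sdc1, Sdc2, Sdc4 and Gpc1. They were chosen by name as leucine-rich, large and membrane proteoglycans, with earlier results of these data known. All 10 passed the filter on low values. RNA was sequenced in 19 libraries of a Sec24D-knockout line of mouse embryonic fibroblasts, so controls and knockdowns alike carry that knockout. SEC24 proteins select cargo for COPII, the coat of vesicles that leave the endoplasmic reticulum. The groups were 4 libraries with scrambled siRNA at 50 nM, 5 with siRNA against Sec24b (the Sec24B knockdown), 5 with scrambled siRNA at 150 nM, and 5 given Sec24a, Sec24b and Sec24c siRNAs together (the triple knockdown). All are labelled 48 h, and the SEC24 siRNAs are given as 50 nM, per siRNA or summed not being stated. The labels do not name the deleted part of Sec24d or the strain, or say whether the line is a clone. Separate cultures are not stated for the replicates, so the p-values cover the spread between libraries, which may be technical.

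A proteoglycan is a core protein that carries glycosaminoglycan chains, which are long sulfated sugar polymers added in the Golgi. Decorin, biglycan, lumican and PRELP are small leucine-rich proteins that bind collagen fibrils and other matrix proteins. Versican binds hyaluronan in the loose matrix around cells, and perlecan, the product of Hspg2, is the large heparan sulfate proteoglycan of basement membranes. Syndecans span the plasma membrane and glypicans are held there by a lipid anchor, and their heparan sulfate chains bind growth factors. All of these core proteins enter the secretory pathway at the endoplasmic reticulum.

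Reads assigned to genes, recovered from the normalised counts, came to 9101855 to 19709672 per library. Sec24b averaged 1114 ± 76.7 normalised counts with 50 nM scrambled siRNA (SD, n = 4) and 479 ± 16.9 in the Sec24B knockdown (n = 5). In the triple knockdown Sec24a, Sec24b and Sec24c averaged 487, 509 and 809, against 800, 1222 and 2795 with 150 nM scrambled siRNA (n = 5 each). Sec24d still had reads, with means of 428 ± 35.5, 451 ± 62.4, 465 ± 26.1 and 452 ± 136 in the 50 nM, Sec24B, 150 nM and triple groups, and since the deleted part is not given these counts do not check the knockout. Fibroblast markers were abundant, with Col1a1 at 184130 in the 50 nM controls, while Thy1 had no entry among the 19716 genes. The summed level of the 8 fibroblast markers measured was 316667 to 343948 in the triple knockdown, 461624 to 561708 with 150 nM scrambled siRNA, 401195 to 472636 in the Sec24B knockdown and 489472 to 530491 with 50 nM. Col1a1, Col1a2, Fn1 and Vim made up most of this sum. In the triple knockdown the mean of each marker lay below its control. In the Sec24B knockdown those of Col1a1, Col1a2, Pdgfrb, Vim and Fn1 did. Means of Col3a1 (8463 against 6915), Pdgfra (186 against 169) and S100a4 (706 against 576) lay above their control there. Measured markers of other cells were low, summing in any library to at most 93.4 for epithelial (5 of 6) and 80.2 for endothelial cells (4 of 5), with each knockdown overlapping its control. Leukocyte markers (3 of 6) summed to 57.3 to 78.7 in the triple knockdown and 124.5 to 157.2 in its control without overlap, and to 56.6 to 73.8 in the Sec24B knockdown and 59.8 to 92.1 in its control. Cd68 made up most of this sum, averaging 52.61 in the triple knockdown and 111.62 in its control. There Csf1r averaged 16.84 and 28.34, and Lyz2 1.5 and 1.12. Skeletal muscle markers (2 of 4) summed to 228.9 to 272.4 in the Sec24B knockdown and 111.6 to 177.1 in its control without overlap, and to 215.0 to 295.3 in the triple knockdown and 163.4 to 234.6 in its control. Des made up nearly all of this sum, averaging 242.55 in the Sec24B knockdown and 142.47 in its control, with Myh3 at 0.77 and 0.88. Fat cell markers (2 of 4) summed to 12.8 to 20.9 in the Sec24B knockdown and 9.8 to 12.6 in its control without overlap, and to 15.8 to 20.6 in the triple knockdown and 10.4 to 28.8 in its control. Most of this sum was Fabp4, averaging 14.11 in the Sec24B knockdown and 11.18 in its control, with Adipoq at 1.86 and 0.49. Epcam, Tie1, Ptprc, Adgre1, Itgam, Myod1, Myog, Plin1 and Cidec had no entry among the genes either, so the sums leave them out. Of 5 chondrocyte markers, Col2a1 and Sox9 were measured, and Acan, Matn1 and Col9a1 had no entry. Those measured summed to 1312 to 1606 in the triple knockdown and 1694 to 2321 in the other groups. In bulk RNA, fewer cells of a type and less RNA per cell cannot be told apart, and the part of these shifts in the results below was not tested.

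Libraries also differed in long transcripts, which matters for the 2 large proteoglycans. In triple knockdown replicate 1, coding genes with a longest transcript of 10 kb and over (276 genes, mean of at least 50 counts) lay 0.442 below the rest of its group at the median on the log2 scale (-0.442). Genes under 2 kb lay 0.343 above it. The same tilt, smaller, was seen in triple knockdown replicate 5 (-0.208), Sec24B replicate 1 (-0.256) and 50 nM scrambled replicate 4 (-0.192). In the plot of long and short transcripts by library these 4 have the circle well below the square.

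**Figure D1:**
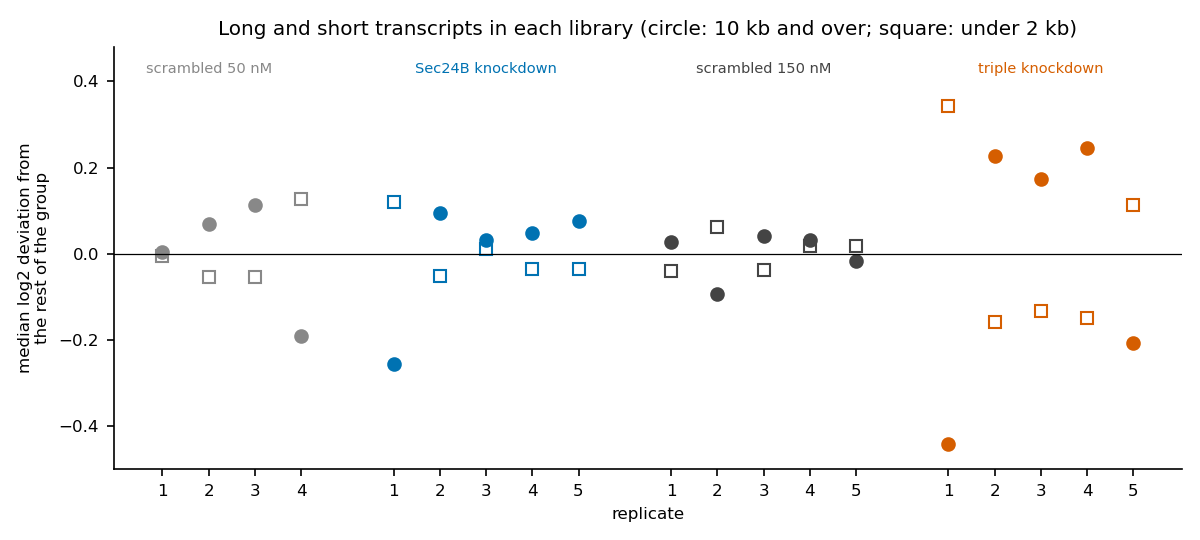
Median log2 deviation of each library from the mean of the other libraries of its group, for genes with a longest transcript of 10 kb and over (circles) and under 2 kb (squares). Triple knockdown replicate 1 has the widest gap, from -0.442 to 0.343.

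Core promoters are shown for the 2 large proteoglycans, which fell together in the triple knockdown, and for Prelp, which rose in the Sec24B knockdown. They come from RefSeq (GRCm38.p6), which held a promoter for 6 of the 10 genes, and each runs 5′ to 3′ on the gene's strand from 250 bases before to 50 after the start. Capitals mark matches on either strand. The motifs searched were the GC box, GGGCGG, the TATA element, here TATAA, the CCAAT box, the AP-1 element, TGANTCA, and the core of the amino acid response element, TGATGNAA.
Hspg2, chr4:137468553-137468852, plus strand: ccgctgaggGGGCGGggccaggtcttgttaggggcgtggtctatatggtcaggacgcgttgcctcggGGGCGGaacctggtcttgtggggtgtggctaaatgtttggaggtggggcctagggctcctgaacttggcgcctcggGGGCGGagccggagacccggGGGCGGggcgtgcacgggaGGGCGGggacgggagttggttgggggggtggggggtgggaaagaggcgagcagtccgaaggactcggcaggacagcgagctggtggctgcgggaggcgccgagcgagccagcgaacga
Vcan, chr13:89742463-89742762, minus strand: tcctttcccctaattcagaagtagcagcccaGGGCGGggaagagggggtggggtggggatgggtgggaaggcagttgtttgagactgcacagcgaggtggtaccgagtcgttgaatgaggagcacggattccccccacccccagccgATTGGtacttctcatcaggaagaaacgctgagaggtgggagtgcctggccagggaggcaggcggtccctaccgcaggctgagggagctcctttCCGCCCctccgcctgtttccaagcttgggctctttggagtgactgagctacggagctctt
Prelp, chr1:133921352-133921651, minus strand: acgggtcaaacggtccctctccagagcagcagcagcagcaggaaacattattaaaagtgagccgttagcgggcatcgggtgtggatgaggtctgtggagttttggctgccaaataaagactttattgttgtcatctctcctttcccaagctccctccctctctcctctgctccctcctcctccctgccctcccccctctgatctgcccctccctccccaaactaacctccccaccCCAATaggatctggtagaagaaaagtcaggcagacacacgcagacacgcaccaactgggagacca
The Hspg2 promoter held 5 GC boxes, that of Vcan 2 with 1 CCAAT box, and that of Prelp 0 with 1 CCAAT box. Among all 32851 RefSeq promoters of this length 35.7% held the GC box, 24.9% the TATA element, 37.4% the CCAAT box, 7.8% the AP-1 element and 4.0% the response element core. Of the 6 members matched, 5 held the GC box, 2 the TATA element (Sdc1 and Sdc4), 3 the CCAAT box and 0 either of the others. GC content was 70.3% for Hspg2, 61.0% for Vcan and 55.3% for Prelp, against a median of 52.7%. These matches are descriptions of the letters in these windows.

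Biglycan was by far the most abundant of the 10 at the RNA level. Per kb of exon, to compare genes of different length, Bgn averaged 5963 ± 241 normalised counts with 50 nM scrambled siRNA. Sdc2 followed at 1078 ± 88.7, Sdc1 at 935 (890 to 1011 over libraries) and Hspg2 at 906 ± 47.2, and the neighbours in that order overlapped between libraries. Sdc4 (465 ± 21.0), Gpc1 (307 ± 41.9), Vcan (253 ± 29.0) and Dcn (223 ± 42.0) came next, with Vcan and Dcn overlapping. Lum (1.33 ± 0.85) and Prelp (1.04 ± 0.51) were barely detected and overlapped. With the length of the longest transcript in place of all exons, Bgn averaged 13641 per kb in the 50 nM controls and Sdc1 (1128 ± 66.4) stood above Sdc2, still overlapping it. By exon length Bgn made up 58.8% ± 1.34 of the per-kb sum of the 10 genes there (SD, n = 4), and 61.5% ± 1.01 in the Sec24B knockdown, 53.7% ± 0.38 with 150 nM scrambled siRNA and 60.7% ± 1.25 in the triple knockdown (n = 5 each). By longest transcript its share was 74.9%, 76.9%, 70.7% and 76.2% in the same order.

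**Figure D2:**
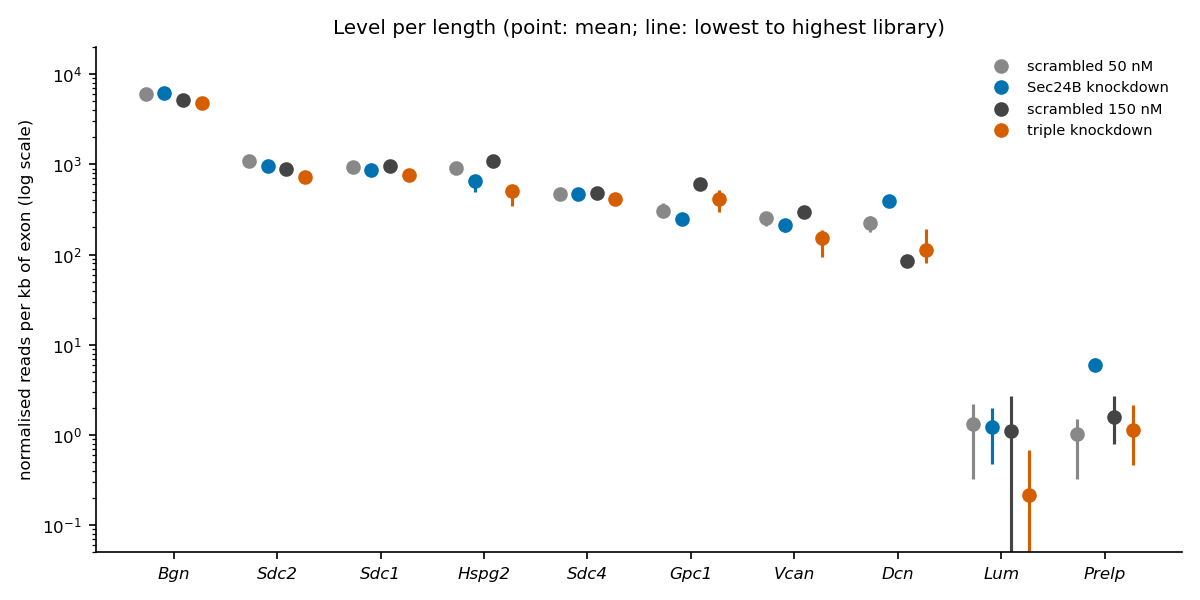
Normalised reads per kb of exon for each gene (log scale), by group; points are means and lines run from the lowest to the highest library, reaching the lower edge where a library is at 0. Bgn averages 4774 to 6115 per kb over the groups, and Lum and Prelp at most 6.03.

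The order by exon length shifted between groups. Dcn stood sixth in the Sec24B knockdown (394 ± 31.3 per kb) and eighth with 150 nM scrambled siRNA (84.6 ± 9.57) and in the triple knockdown (112 ± 45.7). Hspg2 stood next to Bgn with 150 nM scrambled siRNA (1098 ± 118), overlapping Sdc1, and below Sdc1 and Sdc2 in the triple knockdown (513 ± 94.5). By longest transcript Dcn (490.5) stood above Sdc4 (482) in the Sec24B knockdown, with overlapping libraries, and Sdc1 (1168) above Hspg2 (1107) with 150 nM scrambled siRNA, also overlapping. By exon length the per-kb sum over the 10 genes was 7568 to 8096 in the triple knockdown, below the 9065 to 10039 of its 150 nM control, and 9687 to 10185 in the Sec24B knockdown against 9896 to 10278 in its 50 nM control. These sums follow mostly Bgn and carry no test.

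Against their own scrambled controls, 4 of the 10 genes changed in the Sec24B knockdown, Dcn and Prelp higher and Hspg2 and Gpc1 lower. Over all 19635 genes tested 14.6% passed there, 7.53% higher and 7.08% lower. In the triple knockdown 6 fell and 0 rose: Hspg2, Vcan, Gpc1, Sdc1, Sdc2 and Sdc4. There 34.0% of all genes passed, of which 17.2% fell and 16.8% rose as shares of all genes tested, so passing was common in that comparison. Between the scrambled doses 4 changed (8.85% of all genes, 4.75% higher and 4.10% lower), with Gpc1 higher and Dcn, Sdc2 and Bgn lower at 150 nM. The median log2 fold changes of the 10 were -0.05, -0.39 and 0.05 in these comparisons, beside 0.01, 0.01 and -0.00 over all genes. Tests were limma's on log2 of the normalised count plus 1, with p-values adjusted over all genes, and a call means an adjusted p under 0.05. Both knockdown comparisons share a control group with the dose comparison, so their values are not independent.

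**Figure D3:**
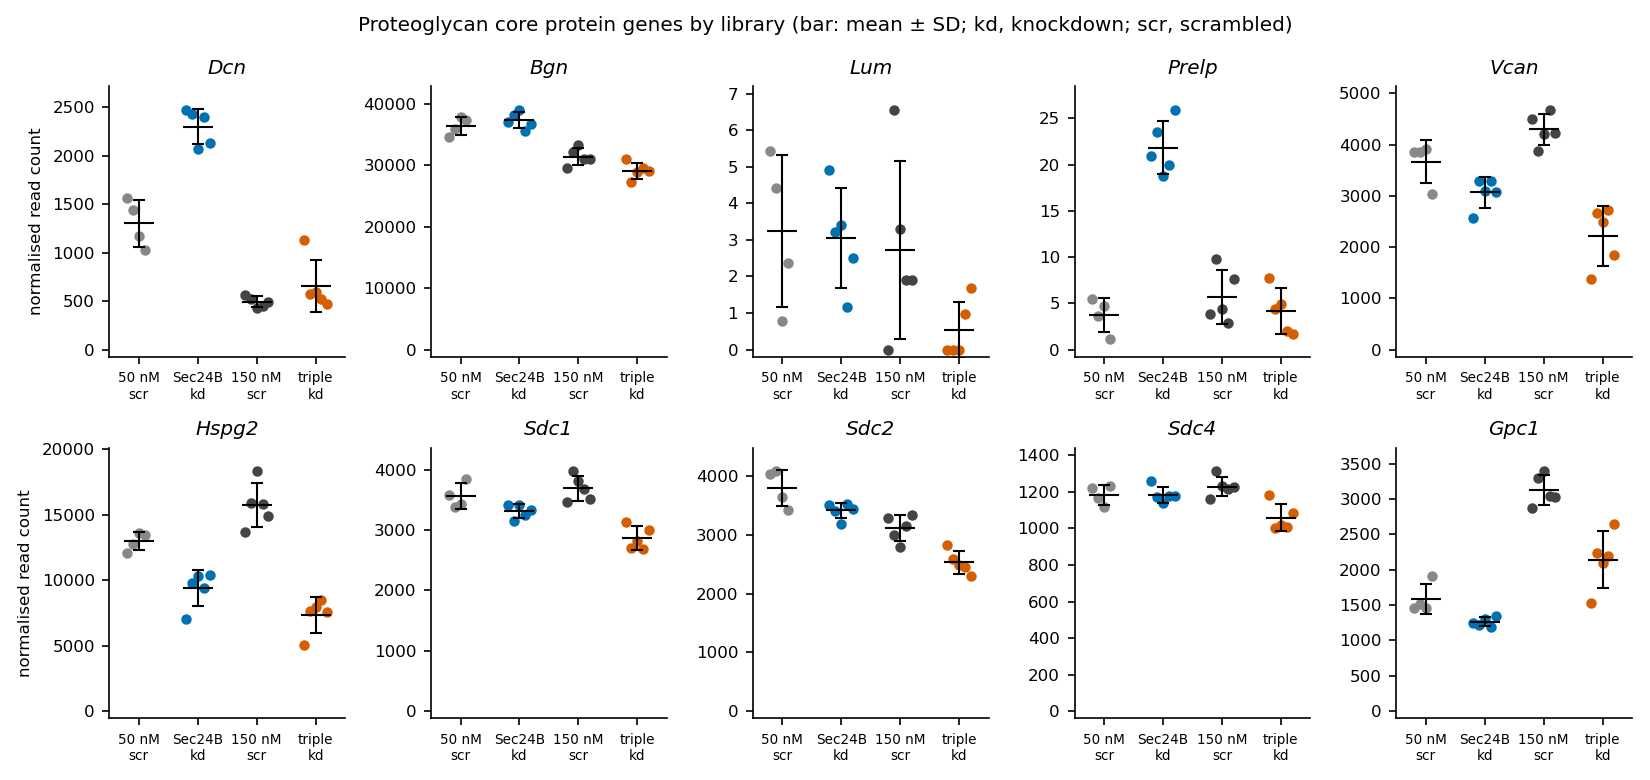
Normalised read counts of the 10 genes in each library (points, in replicate order within a group), with mean and SD as bars, for 4 libraries with 50 nM scrambled siRNA and 5 in each other group. Dcn differs more between the scrambled groups (1302 and 494) than between the triple knockdown (656) and its control.

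**Figure D4:**
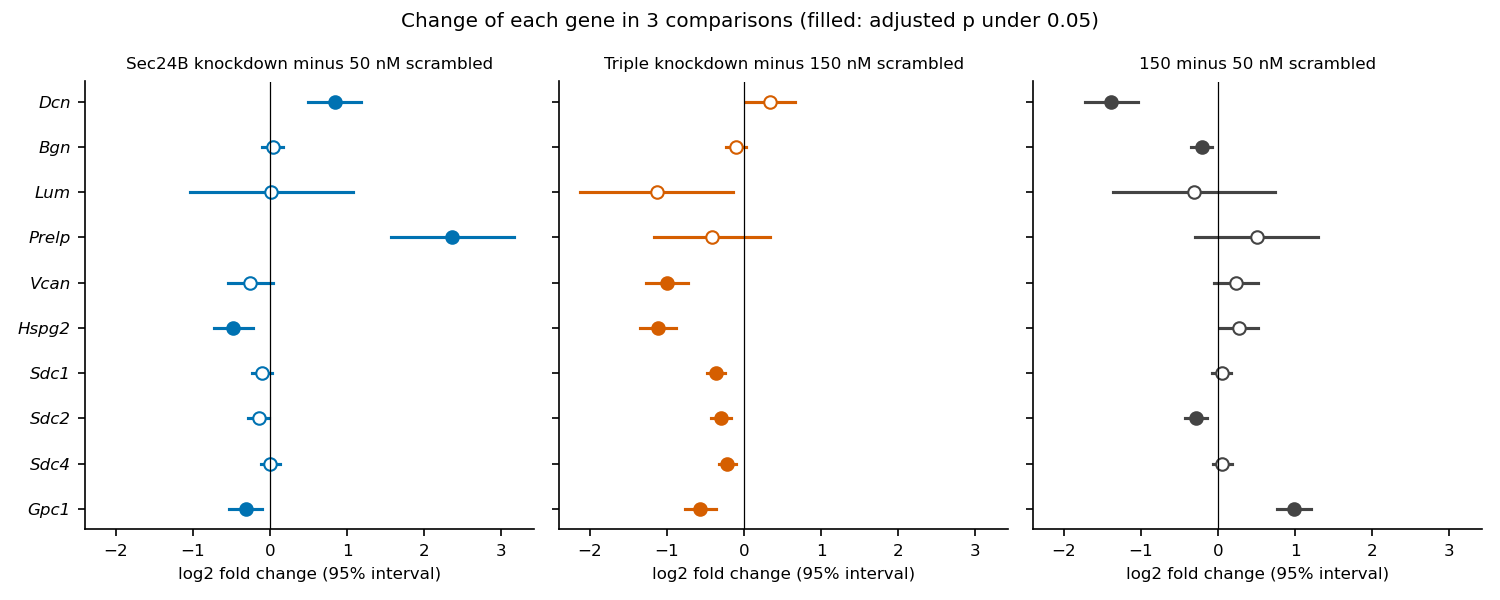
Log2 fold changes with 95% intervals from the limma fit for each gene in 3 comparisons; filled points passed at an adjusted p under 0.05. In the triple knockdown the 6 filled points all lie below 0, from -1.12 for Hspg2 to -0.22 for Sdc4.

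Dcn (ENSMUSG00000019929, GRCm38 chromosome 10, 97479609 to 97518143) encodes decorin, which binds collagen fibrils and TGF-beta. Its normalised counts were 1565, 1442, 1172 and 1029 with 50 nM scrambled siRNA, and 2473, 2427, 2074, 2398 and 2136 in the Sec24B knockdown. Every knockdown library lay above every control library, as did those of 18.4% of all genes in either direction, and the log2 fold change was 0.84 ± 0.17 (SE; adjusted p = 0.000944). Against both scrambled groups pooled it was 1.61 (adjusted p = 0.000105). With 150 nM scrambled siRNA Dcn stood at 567, 526, 426, 455 and 496, below all 50 nM libraries, and 12.7% of all genes did not overlap between the doses (log2 fold change -1.38 ± 0.17, adjusted p = 3.99e-06).

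In the triple knockdown Dcn was 1126 in replicate 1 and 575, 591, 521 and 470 in the others, overlapping its 150 nM control. The log2 fold change of 0.34 ± 0.16 did not pass (95% interval 0.02 to 0.66, adjusted p = 0.0972), and it was 0.13 without replicate 1. Without replicate 5 it passed (0.44, adjusted p = 0.0338). With both scrambled groups pooled as the control it turned to -0.27 (adjusted p = 0.48), since the controls differ by more than the knockdown does. The effects of the 2 knockdowns on Dcn did not differ at the threshold (-0.50 ± 0.23, adjusted p = 0.149), but did without triple knockdown replicate 1 (-0.71, adjusted p = 0.000483).

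Biglycan, the closest relative of decorin, varied little. Bgn (ENSMUSG00000031375, chromosome X, 73483602 to 73495933) ranged from 34572 to 37807 with 50 nM scrambled siRNA and from 35596 to 38965 in the Sec24B knockdown, with a log2 fold change of 0.04 (95% interval -0.10 to 0.17, adjusted p = 0.796). It ranged from 29534 to 33275 with 150 nM scrambled siRNA and from 27300 to 30922 in the triple knockdown, with a log2 fold change of -0.11 (95% interval -0.24 to 0.02, adjusted p = 0.20). The groups overlapped in both knockdown comparisons. The drop between scrambled doses was small (-0.21 ± 0.07, adjusted p = 0.0451), with no overlap, and the call was lost in 8 of 9 fits with 1 library left out, the exception being 150 nM scrambled replicate 3.

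Prelp (ENSMUSG00000041577, chromosome 1, 133910304 to 133921414) encodes a leucine-rich protein that links basement membranes to collagen. It was counted at 5.43, 3.68, 4.72 and 1.18 with 50 nM scrambled siRNA, from 17 reads in all, and at 20.9, 23.5, 18.8, 19.9 and 25.9 in the Sec24B knockdown, from 109 reads. Every knockdown library lay above every control library. The log2 fold change was 2.36 ± 0.39 (adjusted p = 0.000121), and the ratio of reads, corrected for library size, was 5.67 with an exact 95% interval of 3.39 to 10.1 for counting error only.

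The rise in Prelp was not seen in the triple knockdown, where it stood at 7.77, 4.34, 4.98, 1.96 and 1.69, within the 2.84 to 9.83 of the 150 nM controls or below. The log2 fold change was -0.41 ± 0.36 (95% interval -1.16 to 0.34, adjusted p = 0.422). The difference between the effects, triple minus Sec24B, was -2.78 ± 0.53 (adjusted p = 0.000607), and it lay between -3.01 and -2.44 with each library left out in turn. Both knockdowns include siRNA against Sec24b.

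Lum (ENSMUSG00000036446, chromosome 10, 97565128 to 97572703) encodes lumican and lies next to Dcn on the same strand. Its level rested on few reads: 14 over the 4 libraries with 50 nM scrambled siRNA, 15 in the Sec24B knockdown, 11 with 150 nM and 3 in the triple knockdown. Normalised counts were 0, 0, 0, 0.98 and 1.69 in the triple knockdown and 0, 6.55, 3.30, 1.89 and 1.90 in its control, which overlap. The ratio of reads was 0.24, with an exact 95% interval of 0.04 to 0.90 for counting error only, and limma's test did not pass (adjusted p = 0.073). It passed without 150 nM scrambled replicate 1 (log2 fold change -1.54, adjusted p = 0.0119) or triple knockdown replicate 5 (-1.37, adjusted p = 0.04). In the Sec24B knockdown no change was detectable at this depth (0.01, 95% interval -1.04 to 1.07).

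Hspg2, the perlecan gene (ENSMUSG00000028763, chromosome 4, 137468769 to 137570630), had the largest fall among the genes that passed. Its counts were 13691, 15893, 18286, 15778 and 14896 with 150 nM scrambled siRNA and 5008, 7624, 7981, 8499 and 7552 in the triple knockdown. No library of the groups overlapped, as for 21.8% of all genes, and the log2 fold change was -1.12 ± 0.12 (adjusted p = 4.28e-08). In the Sec24B knockdown it fell from 12081, 12788, 13559 and 13418 to 7046, 9794, 10297, 9427 and 10392 (log2 fold change -0.48 ± 0.12, adjusted p = 0.00887), again with no overlap.

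The lowest Hspg2 library was replicate 1 in either knockdown. Without it the log2 fold change was -0.98 in the triple knockdown (adjusted p = 8.09e-10) and -0.38 in the Sec24B knockdown (adjusted p = 0.0303). The fall was larger in the triple than in the Sec24B knockdown (difference -0.64 ± 0.17, adjusted p = 0.00993). Between scrambled doses the ranges did not overlap, with all 150 nM libraries higher, but the log2 fold change of 0.27 ± 0.12 did not pass in the fit of all groups (adjusted p = 0.18). With only the scrambled groups in the fit it did (adjusted p = 0.0214).

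Vcan (ENSMUSG00000021614, chromosome 13, 89655312 to 89742509) encodes versican, whose 9 annotated transcripts are not told apart in these counts. It stood at 4505, 3871, 4201, 4676 and 4233 with 150 nM scrambled siRNA and at 1373, 2673, 2489, 2721 and 1840 in the triple knockdown, with no overlap (log2 fold change -0.997 ± 0.13, adjusted p = 1.73e-06). The lowest libraries were replicates 1 and 5, and the value was -0.84 without replicate 1. In the Sec24B knockdown, at 2569 to 3297 against 3034 to 3905, it did not pass (-0.25 ± 0.14, 95% interval -0.54 to 0.03, adjusted p = 0.254), although it did with only the groups compared in the fit (adjusted p = 0.0296). The triple effect was lower than the Sec24B effect by 0.74 ± 0.19 on the log2 scale (difference -0.74, adjusted p = 0.00847).

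Hspg2 and Vcan have longest transcripts of 14187 and 12427 bases, and long transcripts as a class were lower in the triple knockdown. The median log2 fold change was -0.27 for the 276 genes of 10 kb and over and 0.16 for 1873 genes under 2 kb, and 78.3% of the long genes lay below 0. Among the 276, 8 genes lay below Hspg2 and 12 below Vcan in the triple knockdown, and 17 and 57 in the Sec24B knockdown, where the long genes had a median of -0.10. With the trend on transcript length removed from each library, Hspg2 stood at -0.85 (adjusted p = 2.34e-09) and Vcan at -0.75 (adjusted p = 2.19e-10) in the triple knockdown. Hspg2 stood at -0.37 in the Sec24B knockdown then (adjusted p = 0.00259). The fall of both genes thus passed with the length trend removed, at a smaller size.

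The syndecans fell by less. Sdc1 (ENSMUSG00000020592, chromosome 12, 8771323 to 8793715), a receptor for matrix and growth factors known best from epithelia, stood at 3457, 3970, 3819, 3687 and 3511 with 150 nM scrambled siRNA. The triple knockdown libraries stood at 3139, 2707, 2814, 2678 and 3001, with no overlap (log2 fold change -0.36 ± 0.06, adjusted p = 1.82e-05). With Sec24B knockdown it ranged from 3144 to 3420, overlapping the 3389 to 3851 of the control (-0.10, 95% interval -0.23 to 0.02, adjusted p = 0.288). The effects differed by -0.26 ± 0.08 (adjusted p = 0.033), a call that ended in 12 of 19 fits with 1 library left out, where the difference ranged from -0.30 to -0.23.

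Sdc2 (ENSMUSG00000022261, chromosome 15, 32920723 to 33034935), the syndecan typical of mesenchymal cells, was 3297, 3011, 2800, 3154 and 3352 with 150 nM scrambled siRNA. The triple knockdown libraries were at 2832, 2596, 2491, 2460 and 2305 (log2 fold change -0.30 ± 0.06, adjusted p = 0.000627). The ranges overlapped by replicate 1 of the triple knockdown alone. Sdc2 was lower at 150 than at 50 nM scrambled siRNA (-0.28 ± 0.07, adjusted p = 0.00901), a call lost without 50 nM scrambled replicate 1 (-0.25) or 2 (-0.25). With Sec24B knockdown it did not pass (-0.15, 95% interval -0.29 to -0.01, adjusted p = 0.152).

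Sdc4 (ENSMUSG00000017009, chromosome 2, 164424247 to 164443887) encodes the syndecan of focal adhesions. It ranged from 1160 to 1312 with 150 nM scrambled siRNA and was 1181, 1005, 1019, 1007 and 1084 in the triple knockdown, overlapping through replicate 1 (log2 fold change -0.22 ± 0.06, adjusted p = 0.00338). With Sec24B knockdown it stood at 1137 to 1258, against 1117 to 1234 (0.00, 95% interval -0.12 to 0.12, adjusted p = 0.991).

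Gpc1 (ENSMUSG00000034220, chromosome 1, 92831645 to 92860779) encodes glypican 1, a lipid-anchored heparan sulfate proteoglycan that binds fibroblast growth factors. It was 1455, 1515, 1465 and 1907 with 50 nM scrambled siRNA and 2879, 3301, 3392, 3049 and 3034 with 150 nM, which do not overlap (log2 fold change 0.99 ± 0.11, adjusted p = 9.51e-07). It moved opposite to Dcn, the other gene that shifted most between the scrambled doses. Counts in the triple knockdown were 1525, 2235, 2101, 2195 and 2650, each below every 150 nM library (-0.57 ± 0.10, adjusted p = 7.12e-05). With the scrambled groups pooled it no longer passed (-0.13, adjusted p = 0.653). The triple knockdown mean of 2141 lay below the 3131 of the 150 nM controls and above the 1585 of the 50 nM controls. The direction of the Gpc1 change thus depends on which scrambled dose is the control.

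After Sec24B knockdown Gpc1 stood at 1197 to 1351, below every control library (-0.32 ± 0.11, adjusted p = 0.0414). With the scrambled groups pooled it was -0.87 (adjusted p = 0.00134). The call against the 50 nM controls was lost in 7 of 9 fits with 1 library left out and with upper-quartile scaling (adjusted p = 0.0707). Without 50 nM scrambled replicate 4, its highest control library, the log2 fold change was -0.23 (adjusted p = 0.18). The 2 effects did not differ at the threshold (-0.25 ± 0.14, adjusted p = 0.273). Gpc1 overlaps Ankmy1 and Gm29481 on the other strand, which reached at most 9.14 and 8.19 counts in any library. Vcan overlaps the antisense gene Gm4117, at 22.9 to 62.2. Whether reads were counted by strand is not given in the sources used here.

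The difference between the effects, triple minus Sec24B, was below 0 for all 10 genes, and passed for 4 of them: Prelp, Vcan, Hspg2 and Sdc1. Over all genes 15.8% passed, and 8.38% passed as lower and 7.44% as higher in that test. The median difference was -0.38 for the 10 genes and -0.01 over all genes. Of the 276 genes of 10 kb and over, the length class of Hspg2 and Vcan, 70.3% lay below 0. By the authors' deposited table, an adjusted p under 0.05 was reached by 4, 7 and 4 of the 10 genes in the Sec24B, triple and dose comparisons. The gene not called here is Bgn in the triple knockdown, at -0.11 with an adjusted p of 0.0341 in the authors' deposited table.

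The counts in the lists that follow stand beside 17.2% of all genes lower and 16.8% higher in the triple knockdown, and 7.08% lower and 7.53% higher in the Sec24B knockdown. Other proteoglycan genes, 24 of a list of 36 that were measured, had 10 lower and 2 higher in the triple knockdown (median log2 fold change -0.24) and 3 lower and 4 higher in the Sec24B knockdown (median 0.01). The syndecan Sdc3 fell from 3431 to 1818 in the triple knockdown (-0.92 ± 0.06, adjusted p = 4.66e-11) and from 3406 to 2769 in the Sec24B knockdown (-0.30 ± 0.07, adjusted p = 0.00351). The hyaluronan receptor Cd44 (-0.68 ± 0.08) and the leucine-rich Podnl1 (-0.57 ± 0.07) fell in the triple knockdown (adjusted p = 2.35e-07 and 4.85e-07) and did not pass in the Sec24B knockdown (0.639 and 0.143). Their effects differed by -0.61 and -0.40 on the log2 scale (adjusted p = 0.000547 and 0.00656). The glypican Gpc6 and the semaphorin co-receptor Nrp1 fell in both knockdowns, by 0.63 and 0.66 in the Sec24B knockdown and by 0.51 and 0.55 in the triple knockdown on the log2 scale.

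Ogn, which encodes the leucine-rich protein osteoglycin, rose in both against its own scrambled control. It went from 178 to 334 in the Sec24B knockdown (0.92 ± 0.16, adjusted p = 0.000251) and from 77.2 to 158 in the triple knockdown (0.997 ± 0.15, adjusted p = 1.23e-05). Like Dcn it was lower at the higher scrambled dose (-1.19, adjusted p = 2.17e-05). The triple knockdown mean of 158 lay below the 178 of the 50 nM controls, so that rise holds against the 150 nM control only. The other leucine-rich genes of the list fall outside the rule for named genes and were chosen after their values were seen. Omd (0.19, adjusted p = 0.837), Optc (-0.64, adjusted p = 0.295) and Ecm2 (0.23, adjusted p = 0.876) did not pass in the Sec24B knockdown, nor did Podnl1, while Fmod and Podn rose. Fmod went from 32.3 to 94.1 (1.55 ± 0.29, adjusted p = 0.00055) and Podn from 41.3 to 76.7 (0.87 ± 0.19, adjusted p = 0.00257). Fmod (0.33, adjusted p = 0.392) and Podn (-0.03, adjusted p = 0.915) did not pass in the triple knockdown, and the effects differed by -1.22 (adjusted p = 0.0371) and -0.91 (adjusted p = 0.0188).

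Enzymes that build the sugar chains split. Of 24 genes of chain synthesis 8 fell and 3 rose in the triple knockdown (median -0.05), and 4 fell and 1 rose in the Sec24B knockdown (median -0.02), where 14.6% of all genes passed, as did 34.0% in the triple knockdown. Ext1, a heparan sulfate polymerase subunit, went from 2545 to 1744 in the triple knockdown (-0.55 ± 0.05, adjusted p = 2.41e-08). It also fell in the Sec24B knockdown (-0.39 ± 0.06, adjusted p = 3.96e-05). The xylose phosphatase Pxylp1 (-0.89 ± 0.06) and Ugdh, which makes the UDP-glucuronate used for the chains (-0.52 ± 0.06), fell there with adjusted p-values of 6.29e-11 and 8.11e-08. With Sec24B knockdown the chondroitin synthase Chsy1 fell (-0.35 ± 0.08, adjusted p = 0.00386) and Ext2, the partner of Ext1, rose (0.22 ± 0.05, adjusted p = 0.00336). Chsy1 also fell in the triple knockdown (-0.40 ± 0.08, adjusted p = 0.000177), where Ext2 did not pass (-0.04, adjusted p = 0.544).

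Of 23 sulfation and epimerisation genes 13 fell and 2 rose in the triple knockdown (median -0.23), and 5 fell and 1 rose in the Sec24B knockdown (median 0.04). The chondroitin sulfotransferase Chst11 (856 to 462, -0.90 ± 0.09) and the heparan sulfate sulfotransferases Ndst1 (-0.75 ± 0.08) and Hs6st2 (-0.58 ± 0.07) were among those that fell in the triple knockdown. Chst11, Ndst1 and Hs6st2 fell in the Sec24B knockdown as well (-0.66, -0.31 and -0.33, adjusted p = 1.95e-05, 0.0114 and 0.00179). The effects differed at the threshold for Ndst1 (adjusted p = 0.0101) but not for Chst11 (0.207) or Hs6st2 (0.0837). Glce, the epimerase of heparan sulfate, rose from 388 to 799 there (1.04 ± 0.08, adjusted p = 1.85e-10). Sulf1, which removes sulfate from heparan sulfate outside the cell, also fell in both knockdowns. Its falls were 0.92 and 0.88 on the log2 scale in the Sec24B and triple knockdowns (adjusted p = 6.61e-07 and 7.96e-08).

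A list of proteoglycan cleavage and shedding genes, mainly proteases, had 9 of 20 lower and 2 higher in the triple knockdown (median -0.27). In the Sec24B knockdown 3 were lower and 3 higher (median -0.01). The list also holds Timp3, a protease inhibitor, and Hpse, Hpse2 and Notum, which are not proteases. Hpse, among the 3 higher, averaged only 1.71 counts in the Sec24B knockdown and 0 in its control. Adamts4, a protease of versican and aggrecan, fell from 472 to 194 in the triple knockdown (-1.30 ± 0.11, adjusted p = 8.28e-10), and Adamts5 from 1788 to 1251 (-0.53 ± 0.08). In the Sec24B knockdown Adamts4 fell from 341 to 224 (-0.61 ± 0.11, adjusted p = 0.000485) and Adamts5 did not pass (adjusted p = 0.991). Adamts9 rose in the Sec24B knockdown (266 to 436, 0.71 ± 0.11, adjusted p = 7.32e-05) and fell in the triple knockdown (242 to 158, -0.62 ± 0.10, adjusted p = 4.42e-05). Bmp1, which trims the propeptide of biglycan, also fell in both, by 0.38 in the Sec24B and 0.67 in the triple knockdown on the log2 scale.

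Among 14 measured partners of versican and hyaluronan 6 fell and 2 rose in the triple knockdown (median -0.32), and 2 fell and 3 rose in the Sec24B knockdown (median 0.17). Has2, the main hyaluronan synthase of fibroblasts, fell from 631 to 253 after triple knockdown (-1.33 ± 0.11, adjusted p = 6.14e-10), and from 672 to 424 after Sec24B knockdown (-0.66 ± 0.11, adjusted p = 0.000232). Fbln2, a fibulin that binds versican, fell from 37586 to 24516 in the triple knockdown (-0.62 ± 0.08) and from 31292 to 20848 in the Sec24B knockdown (-0.58 ± 0.09).

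**Figure D5:**
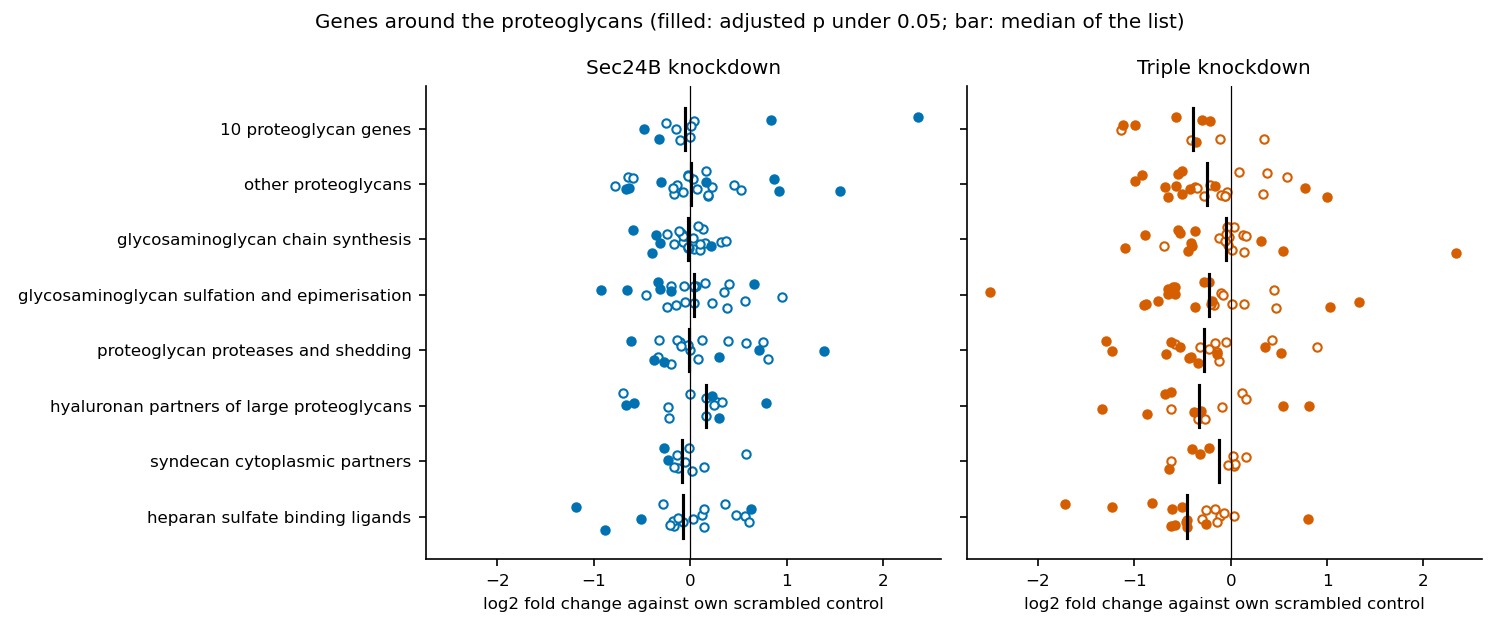
Log2 fold changes of the 10 proteoglycan genes and of 7 lists of related genes in each knockdown against its own scrambled control; filled points passed at an adjusted p under 0.05 and bars are list medians. In the triple knockdown all list medians lie below 0, from -0.45 for heparan sulfate binding ligands to -0.05 for chain synthesis.

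By likeness, taken as the Euclidean distance over the 3 log2 fold changes (Sec24B, triple and dose) among 11478 other genes with a mean of at least 50, the nearest gene was Hspa1b for Hspg2 (distance 0.038) and Irs1 for Vcan (0.093). It was Oas3 for Dcn (0.194), Slc16a13 for Gpc1 (0.211) and Sp1 for Bgn (0.019). For Sdc1, Sdc2 and Sdc4 it was Igf2bp3 (0.009), Ccp110 (0.061) and Dynlt1-ps1 (0.018). None of these candidates came close to Prelp, with Ptprv at a distance of 1.18, and for Lum the nearest was Vdr (0.192). Prelp and Lum averaged at most 21.8 and 3.25 in any group, so genes as low as these were not among the candidates.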

How the data were processed

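The authors deposited a signal per gene, here called the normalised count: reads over 1 library factor, to 2 decimals. From the step of 0.736 to 1.638 that 1 read is worth, at least 99.99% of values came out whole within 0.0055. TopHat2 2.0.8, Partek 6.6, Trimmomatic 0.27 and FastQC 0.10.1 appear in the submitters' processing notes, with human builds (hg19, GRCh37). The gene IDs are mouse: 19666 of 19716 were in GENCODE M21 (GRCm38), 99.0% at identical positions. The log2 fold changes and adjusted p-values deposited by the authors were used for comparison only.

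The fit, on log2(value + 1), held 4 group means over all 19 libraries. It used limma 3.58.1 (trend option, R 4.3.3) on the 19635 genes that reached 1 in 4 or more libraries, and two-sided p-values were adjusted by Benjamini-Hochberg across them. The fit was also run on simulated data, whose outcome is not given here. Changes were placed only in genes with higher means than Lum and Prelp, and no tilt with transcript length was simulated. The planned scaled-count branch was used, with edgeR 4.0.16, DESeq2 1.42.0 and limma-voom on recovered reads as alternatives. Named genes are the 10 members, up to 3 called genes per list and knockdown with the smallest adjusted p (not all are described), the nearest gene to each member, and Sec24a to Sec24d. The members and lists were chosen with earlier results of these data known. Per-length levels used GENCODE exon unions. Intervals for reads cover counting error only.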

Additional observations from a re-analysis of the deposited data

Results flagged for a closer look

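Among 40 sets of libraries (10 genes in 4 groups), 5 had a library far from the others of its group by Dixon's criterion, and chance alone flags about 1 in 20 groups. In the triple knockdown, replicate 1 was the highest for Dcn (1126) and the lowest for Hspg2 (5008). In the Sec24B knockdown, replicate 1 was the lowest for Hspg2 (7046). Replicate 4 of the 50 nM scrambled group was the lowest for Vcan (3034) and the highest for Gpc1 (1907). These are 3 of the 4 libraries in which long transcripts lay low against the rest of their group, and the part of that in these values was not tested.

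The triple and Sec24B effects differed by limma's test of the difference for 4 genes, each lower in the triple knockdown. On the log2 scale the difference was -2.78 for Prelp, -0.74 for Vcan, -0.64 for Hspg2 and -0.26 for Sdc1.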

How the results depend on the processing

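No result changed sign with a call under any alternative: of 996 values of single genes 935 kept their call, 26 gained and 35 lost one. Over all genes the Sec24B count rose from 2868 to 4470 with pooled scrambled groups. The dose count of 1737 ranged from 899 to 2174 with 1 library left out, falling to 899, 919 and 1042 without 50 nM scrambled replicates 1, 2 and 3 and to 1137 without 150 nM scrambled replicate 3. It became 3669 without the 3 libraries farthest from their groups (triple knockdown 1, Sec24B 1 and 50 nM scrambled 4), a setting chosen after seeing the data, like the removal of the length trend. The members called between doses ranged from 2 to 4 with 1 library left out, and were 2 without 50 nM scrambled replicate 1 or 2. Without the 3 libraries 6 members fell and 0 rose in the triple knockdown, and 2 rose and 4 fell in the Sec24B knockdown, adding Sdc2 (-0.21) and Vcan (-0.28). With the length trend removed 7 fell and 1 rose in the triple knockdown, adding Bgn (-0.15) and Dcn (0.41).

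Same-numbered libraries did not deviate together (r from -0.357 to 0.322 over 13 pairs, 2 of them best with their own number). With the replicate number as a block, counts over all genes were 2654 for Sec24B, 6644 for triple, 1414 for dose and 3108 for the difference. There Dcn passed in the triple knockdown (adjusted p = 0.0267) and in the difference (0.0348), while Bgn between doses (0.0643) and Sdc1 in the difference (0.0514) did not. Lum and Prelp rest on 3 to 109 reads per group, so moderate changes in them were not detectable. Gene lengths from the longest transcript moved 32 of 40 shares of the per-kb sum by more than 1 SD.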

Other observations

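Growth factors and chemokines that bind heparan sulfate had 11 of 19 measured genes lower and 1 higher in the triple knockdown (median log2 fold change -0.45), and 3 lower and 1 higher in the Sec24B knockdown (median -0.07). Over all genes 17.2% were lower and 16.8% higher in the triple knockdown, and 7.08% lower and 7.53% higher in the Sec24B knockdown. The gene that rose in the triple knockdown was Vegfa, an angiogenic factor, which went from 2553 to 4460 (0.81 ± 0.05, limma adjusted p = 2.55e-11). Cxcl12, an abundant fibroblast chemokine, fell from 20719 to 13912 (-0.58 ± 0.06, adjusted p = 3.88e-08), and it was also lower at 150 than at 50 nM scrambled siRNA (-0.66, adjusted p = 2.72e-07). Ptn, which encodes the syndecan-binding cytokine pleiotrophin, rose in the Sec24B knockdown (4996 to 7711, 0.63 ± 0.11, adjusted p = 0.000232) and fell in the triple knockdown (3555 to 2634, -0.45 ± 0.10, adjusted p = 0.00113). Hbegf and Pdgfb fell in both knockdowns, by 0.51 and 0.89 on the log2 scale in the Sec24B knockdown and by 0.62 and 1.23 in the triple knockdown.

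Of 10 cytoplasmic partners of syndecans 4 fell and 0 rose in the triple knockdown (median -0.13), and 2 fell and 0 rose in the Sec24B knockdown (median -0.09). Over all genes 34.0% passed in the triple knockdown, with 17.2% lower, and 14.6% passed in the Sec24B knockdown, with 7.08% lower. Taken in either direction these counts lie near the background, and no test was made over the list. Prkca, a kinase that syndecan 4 binds, fell from 1341 to 860 in the triple knockdown (-0.64 ± 0.06, adjusted p = 6.33e-09) and by 0.27 on the log2 scale in the Sec24B knockdown (adjusted p = 0.00461). Src fell in both, by 0.32 and 0.23. Tiam1, a Rac exchange factor, fell in the triple knockdown (-0.41 ± 0.09, adjusted p = 0.000642).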
